A study of Homo sapiens with 4 samples.

Results

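Listed m6A intervals were examined in 9 genes of the heat shock response, in smoke-exposed cells of a human airway epithelial line with and without knockdown of METTL3. The genes were HSPA1A, HSPA1B, HSPA8, HSPA5, HSP90AA1, HSPH1, HSPB1, BAG3 and HSF1, each given as a strand-specific hg19 window. The windows held 16 of the 24729 deposited intervals, 11 of 13691 in the knockdown list and 5 of 11038 in the CSE list. HSPA1A and HSPA1B were chosen by the high scores of their intervals in the knockdown list and their absence from the CSE list, so those values are a description. The other 7 genes belong to the same response, and all 9 were set with values of both lists known. The cells were 16-HBE, an established bronchial epithelial line. In one group, labelled Mettl3 knockdown, METTL3 was targeted by siRNA and the cells received 5% cigarette smoke extract (CSE) for 24 h. The other group, labelled WT, received the same exposure, and no control siRNA is named for it, so that knockdown and transfection cannot be told apart. All cells had smoke extract. Each group had 1 immunoprecipitated and 1 input library in the labels and 1 list of intervals. No spread between samples could be computed and no test between the groups was run, and the lists hold no transcript levels.

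Heat shock proteins are molecular chaperones that bind unfolded proteins and help them fold, stay soluble or reach degradation. Their inducible members are controlled by the transcription factor HSF1, which proteotoxic stress releases from chaperone complexes and which then binds heat shock elements in their promoters. N6-methyladenosine (m6A), written on mRNA by a complex whose catalytic subunit is METTL3, is typically found near stop codons and in long exons, in a sequence context with the core GGAC. In other stressed cells, m6A in the 5′ untranslated region of the mRNA of the inducible HSP70 chaperone has been linked to its translation. MeRIP-seq detects m6A as a region where fragments bound by an m6A antibody exceed the input.

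The inducible HSP70 genes HSPA1A and HSPA1B are near-identical copies side by side on chromosome 6. Their coding sequences, read from GENCODE release 29 (GRCh38), are 1926 nt long, differ at 4 positions (99.8% identity) and encode proteins of 641 amino acids with 0 differences. The first 1709 coding bases are the same in both. The stretch near the stop codon with most of the differences is shown because it is one of the few places in the coding sequence where a read can tell the copies apart. It holds 3 of the 4 differing bases, in capitals, and covers coding bases 1801 to 1920, at chr6:31817557-31817676 for HSPA1A and chr6:31829751-31829870 for HSPA1B (GRCh38, plus strand).
HSPA1A: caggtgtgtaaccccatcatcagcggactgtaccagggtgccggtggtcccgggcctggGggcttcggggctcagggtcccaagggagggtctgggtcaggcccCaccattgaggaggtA
HSPA1B: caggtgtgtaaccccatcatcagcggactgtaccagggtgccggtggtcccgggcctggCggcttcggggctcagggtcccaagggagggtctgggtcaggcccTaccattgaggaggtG

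HSPH1 encodes the HSP110-type chaperone that exchanges nucleotide on HSP70, and it contributed the most intervals. The intervals matched single exons in width, so their borders can follow annotation rather than enrichment. Identical borders in both lists therefore do not place the enrichment. The exon sequences are given because each exon has the width of an HSPH1 interval. They are written on the transcript strand (the minus strand of chromosome 13), from GENCODE release 29 at chr13:31158806-31158863, chr13:31145563-31145768, chr13:31143792-31143923, chr13:31141122-31141259 and chr13:31140184-31140309 (GRCh38), in exon order. Capitals mark GGAC, or ACT together with a preceding AA, AG or GA, which are forms of the m6A sequence context. Exons 12 and 13 were listed in both groups, and exons 2, 11 and 14 with METTL3 knockdown.
Exon 2: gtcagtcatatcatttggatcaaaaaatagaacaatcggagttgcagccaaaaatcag
Exon 11: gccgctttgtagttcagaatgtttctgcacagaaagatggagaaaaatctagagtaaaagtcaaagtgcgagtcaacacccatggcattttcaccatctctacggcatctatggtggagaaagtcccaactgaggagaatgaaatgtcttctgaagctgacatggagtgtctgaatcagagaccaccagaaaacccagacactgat
Exon 12: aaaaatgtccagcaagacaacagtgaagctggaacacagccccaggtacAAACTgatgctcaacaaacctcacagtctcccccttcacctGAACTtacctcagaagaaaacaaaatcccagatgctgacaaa
Exon 13: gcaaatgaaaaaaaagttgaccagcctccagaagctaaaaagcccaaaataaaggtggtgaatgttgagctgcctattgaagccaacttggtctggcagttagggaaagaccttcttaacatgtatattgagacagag
Exon 14: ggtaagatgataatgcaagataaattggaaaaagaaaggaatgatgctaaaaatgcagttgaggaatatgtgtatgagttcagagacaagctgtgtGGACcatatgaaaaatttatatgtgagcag

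Of the 9 genes, 5 had a listed interval with METTL3 knockdown and 3 in CSE. HSPA1A and HSPA1B had 1 interval each with knockdown and 0 in CSE. HSPH1 had 5 with knockdown and 2 in CSE, and BAG3 had 3 with knockdown and 2 in CSE. HSP90AA1 had 1 in each list. HSPA8, HSPA5, HSPB1 and HSF1 had 0 in either list. All 5 CSE intervals were listed with knockdown too, with identical start and end, whereas 6 of the 11 knockdown intervals, in 4 genes, had no overlap with the CSE list. This share was 54.5%, beside 35.5% of all knockdown intervals. HSPA1A and HSPA1B supplied 2 of the 6, through the choice of genes, so no confidence range is given for this share. Without these 2 genes it was 4 of 9, and 3 of the 4 lay in HSPH1. For CSE the share was 0 of 5, beside 19.9% of all CSE intervals. Counting error alone allows up to 43.4% there (Wilson 95% interval), which includes that background. Intervals of 1 gene are not independent of each other, so even this range is too narrow.

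**Figure D1:**
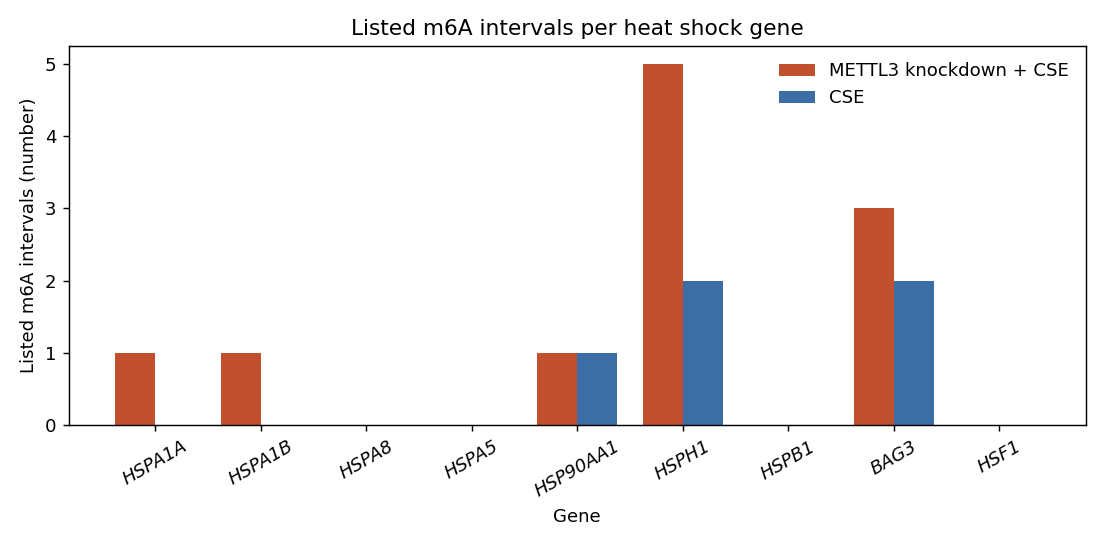
Number of listed m6A intervals (vertical axis) in each of the 9 genes (horizontal axis), with METTL3 knockdown + CSE on the left of each pair and CSE on the right. HSPH1 has 5 and 2, BAG3 3 and 2, HSP90AA1 1 and 1, HSPA1A and HSPA1B 1 and 0, and the other 4 genes have 0 in both lists.

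The windows held 2.2 intervals with knockdown for each CSE interval, where the whole lists had a ratio of 1.24. Without HSPA1A and HSPA1B the counts were 9 and 5, a ratio of 1.8. Most of that difference lay in 1 gene, HSPH1, with 5 and 2. BAG3 had 3 and 2 and HSP90AA1 had 1 and 1, so the ratio does not describe the genes as a set. Covered length was 8935 nt with knockdown and 3110 nt in CSE, and without these 2 genes it was 3986 nt with knockdown and 3110 nt in CSE, a ratio of 1.28 beside 1.09 for the whole lists. When only the upper 50% of each list by score was kept, knockdown-only intervals numbered 3 and CSE-only intervals 2. HSPA1A and HSPA1B, chosen by score and by absence from CSE, were 2 of the 3, and HSPH1 exon 14 was the other. The 2 CSE-only intervals were the shared HSPH1 intervals, which ranked in the lower part of the knockdown list.

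HSPA1A and HSPA1B encode the stress-inducible cytosolic HSP70. With METTL3 knockdown HSPA1A was listed as 1 interval of 2429 nt at chr6:31783291-31785719 (hg19, plus strand). HSPA1B was listed as 1 of 2520 nt at chr6:31795512-31798031 (hg19, plus strand), 9792 nt further on. Both genes have a single exon, of 2483 nt in HSPA1A and 2521 nt in HSPA1B in GENCODE. The intervals thus have about the length of the whole transcript, from the 5′ untranslated region past the stop codon, and do not say where in it the enrichment lay.

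The score, the authors' own value whose scale is not stated, was 3100 for both, a value at which scores pile up. A score of 3100 or more was held by 8.55% of the knockdown list, and 3100 is its 95.5th percentile with ties at their middle rank. Among knockdown intervals over 2000 nt, 15.2% had no CSE overlap. Of the 172 knockdown-only intervals over 2000 nt, 8 scored 3100 or more. HSPA1A and HSPA1B were 2 of them through the choice of genes, so this is a description. In CSE neither gene was listed on either strand. The nearest CSE interval of the plus strand lay 67791 nt from the HSPA1A window and 79791 nt from the HSPA1B window. Without read depths or transcript levels, this absence cannot be told apart from low expression.

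The interval names carry running numbers, most of which are not in the lists. HSPA1A and HSPA1B had consecutive numbers with knockdown. With knockdown, 1 number was unlisted between HSPA1A and the listed interval before it. Between the listed CSE intervals on either side of both genes, 1 number was also unlisted. If the numbers count calls, no more than 1 unlisted CSE call fell in that stretch. Whether it was in these genes is not known from the lists.

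**Figure D2:**
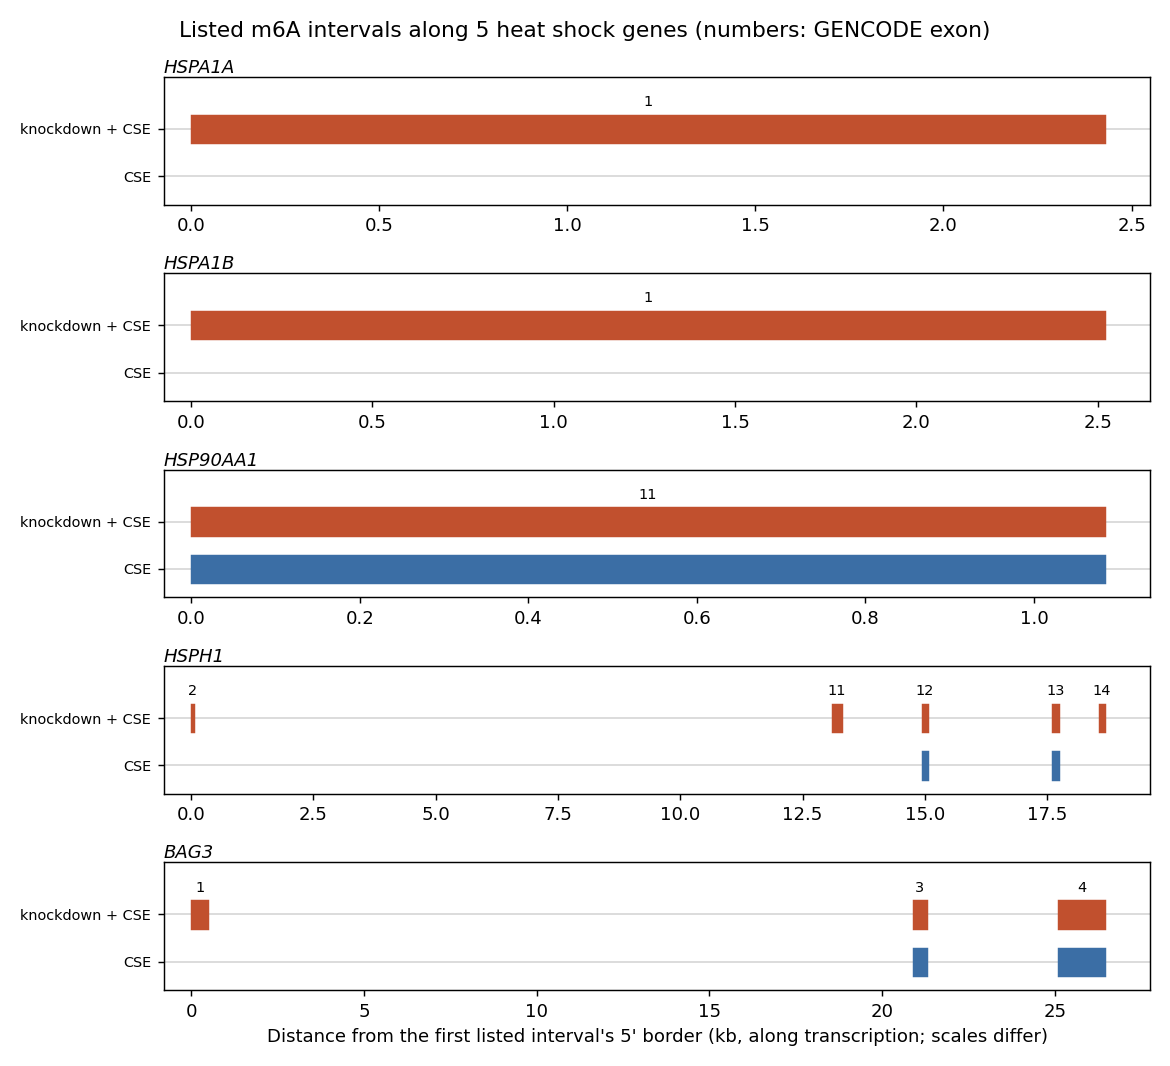
Position of listed intervals along HSPA1A, HSPA1B, HSP90AA1, HSPH1 and BAG3, in kb from the 5′ border of the first listed interval in the direction of transcription, with METTL3 knockdown + CSE in the upper row and CSE in the lower row of each panel. Boxes are intervals and numbers above them are GENCODE exons; each CSE box has a knockdown box with the same borders.

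The pair could not be treated as separate observations, because most of their transcript sequence is shared. Of all 50 nt stretches of the HSPA1A transcript, 72.6% also occur in HSPA1B, and 71.4% of those of HSPA1B occur in HSPA1A. With stretches of 100 nt, 69.9% of HSPA1A and 72.7% of HSPA1B were found in another gene. HSPA1L, a related HSP70 gene, shared 2.51% of the 50 nt stretches of HSPA1A. AL671762.1, a noncoding transcript in the annotation, shared 33.8%. The sources used here do not give how reads that fit more than 1 gene were assigned, and the part of such reads in the intervals was not tested.

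**Figure D3:**
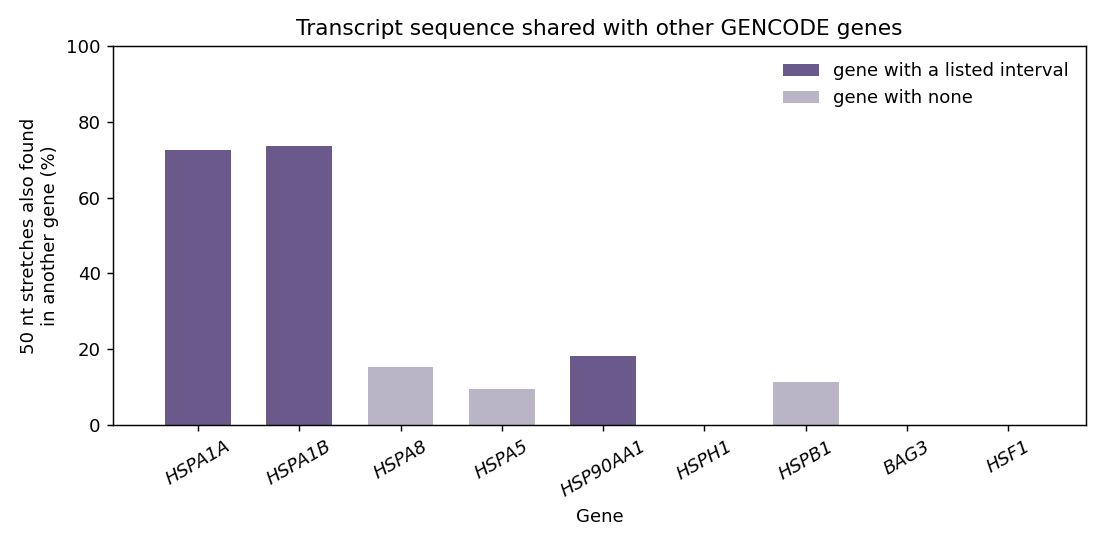
Share of the 50 nt stretches of each gene's transcript that also occur in the transcripts of another GENCODE gene (vertical axis, percent), for the 9 genes (horizontal axis), dark for genes with a listed interval and light for genes with none. HSPA1A (72.6%) and HSPA1B (73.5%) stand far above HSP90AA1 (18.2%) and HSPA8 (15.4%), and HSPH1, BAG3 and HSF1 are at 0.

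HSPH1 was listed at 5 exons with METTL3 knockdown and at 2 in CSE. On the minus strand of chromosome 13 (hg19) the knockdown intervals were 58 nt at chr13:31732943-31733000, 206 nt at chr13:31719700-31719905, 132 nt at chr13:31717929-31718060, 138 nt at chr13:31715259-31715396 and 126 nt at chr13:31714321-31714446. Their widths equal those of exons 2, 11, 12, 13 and 14 of an HSPH1 transcript with 18 exons, and the distances between neighbouring starts, from exon 14 back to exon 2 (938, 2670, 1771 and 13243 nt), are the same in both builds. All 5 exons are coding throughout. Exons 11 to 14 form an unbroken run, in which the knockdown-only exons 11 and 14 lie on either side of the shared pair.

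The score of exon 14 was 1006.0 with knockdown, the 77.9th percentile of that list, and exon 14 was not listed in CSE. Exon 2 scored 177.5 and exon 11 scored 79.7 with knockdown, at percentiles 37.7 and 14.1. Exon 13 scored 188.0 with knockdown and 412.4 in CSE, at percentile 39.4 of the knockdown list and 66.1 of the CSE list. Exon 12 scored 270.0 with knockdown and 259.8 in CSE, at percentiles 49 and 54.4. The knockdown-only exons thus included the highest and the lowest HSPH1 score of the knockdown list. Both shared exons ranked lower in the knockdown list than in the CSE list, although the score of exon 12 itself was slightly higher with knockdown. The median score of the whole list was 280.1 with knockdown and 223.8 in CSE, so these ranks do not measure a change at the exons. Among knockdown intervals of up to 300 nt, the class of all 5 HSPH1 intervals, 42.2% had no CSE overlap, beside 3 of 5 here. Between the flanking listed intervals, 3 running numbers were unlisted with knockdown and 20 in CSE, and whether any of them lay in HSPH1 is not known.

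**Figure D4:**
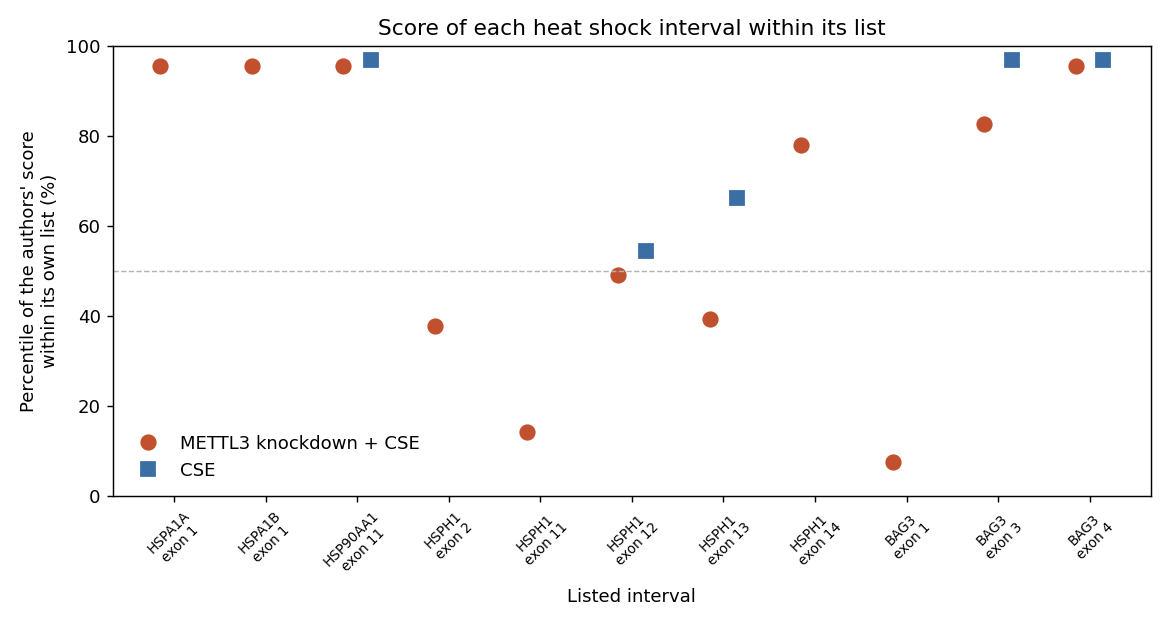
Percentile of the authors' score of each listed heat shock interval among all intervals of its own list (vertical axis, percent), circles for METTL3 knockdown + CSE and squares for CSE, by gene and GENCODE exon (horizontal axis). HSPA1A, HSPA1B, HSP90AA1 and the last exon of BAG3 sit at the 95.5th percentile with knockdown, and HSPH1 and BAG3 exons spread from 7.55 to 95.5; percentiles rank within a list and do not measure a change between lists.

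BAG3 is a co-chaperone that links HSP70 to small heat shock proteins and to selective autophagy. With METTL3 knockdown it was listed at exon 1 (486 nt, chr10:121410882-121411367), exon 3 (402 nt, chr10:121431767-121432168) and exon 4 (1354 nt, chr10:121435976-121437329; hg19, plus strand). In CSE exons 3 and 4 were listed, with the same borders. Exon 1 holds the start codon, with 306 of its 486 nt noncoding, and exon 4 holds the stop codon and is the last of 4 exons. Exon 4 scored 3100 with knockdown and 3100 in CSE. Exon 3 scored 1372.0 with knockdown, at percentile 82.6, and 3100 in CSE, at percentile 96.8. The knockdown-only exon 1 was the weakest of all 11 knockdown intervals, with a score of 64.2 at the 7.55th percentile of its list. Exon 2, which lies between listed exons, was in neither list. BAG3 thus had 1 low-ranking knockdown-only interval beside 2 high-ranking ones common to both groups.

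HSP90AA1 encodes the inducible cytosolic HSP90 alpha, a chaperone of kinases and steroid receptors. It had 1 interval with identical borders in both lists, 1084 nt at chr14:102547075-102548158 (hg19, minus strand), the width of its last exon, which holds 110 coding nt, the stop codon and 974 noncoding nt. It scored 3100 with knockdown and 3100 in CSE. Scores of 3100 or more were held by 4 of the 11 heat shock intervals with knockdown and by 3 of the 5 in CSE, beside 8.55% of all knockdown intervals and 5.98% of all CSE intervals. HSPA1A and HSPA1B, chosen by this score, are 2 of the 4, and without them it was 2 of 9 with knockdown. All heat shock intervals at 3100 were over 300 nt, a class in which this score ranked lower than in the whole lists. With knockdown it stood at percentile 93.5 of that class, beside 95.5 of the whole list. In CSE it stood at 95.6, beside 96.8. The whole-list shares are thus no background of like width. Those in CSE were HSP90AA1 and exons of BAG3 alone, and intervals of 1 gene are not independent. The coding end of the last HSP90AA1 exon is shown with its stop codon as the last 3 bases, capitals as above (chr14:102081712-102081821, GRCh38, minus strand).
HSP90AA1: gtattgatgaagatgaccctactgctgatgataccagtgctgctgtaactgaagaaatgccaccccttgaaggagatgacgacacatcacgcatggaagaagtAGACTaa

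No interval was listed for HSPA8, the constitutive cytosolic HSP70, for HSPA5, the HSP70 of the endoplasmic reticulum also known as BiP, for HSPB1, a small heat shock protein, or for HSF1. Between the listed intervals that flank each window, 2 numbers were unlisted with knockdown and 4 in CSE for HSPA8, 13 with knockdown and 8 in CSE for HSPA5, 8 with knockdown and 1 in CSE for HSPB1, and 14 with knockdown and 12 in CSE for HSF1. These stretches reach beyond the genes, so the numbers do not say whether an unlisted call lies in any of the 4. Without read depths or transcript levels, absence from a list cannot be told apart from low expression. HSPA8, HSPA5 and HSPB1 share sequence with processed pseudogenes: 15.4% of the 50 nt stretches of HSPA8 occur in other genes, all 10 of them pseudogenes, 9.54% of those of HSPA5 and 11.4% of those of HSPB1. HSF1 shared 0.

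The m6A sequence context was counted on the transcript strand in the exon behind each interval, beside exons of protein-coding genes of like length (within 5 nt, or within 10% above 1000 nt). HSPA1A held 20 copies of GGAC and HSPA1B 23, against means of 7.61 and 7.74 in exons of like length. Of the longer GGACT they held 3 and 7, against 2.13 and 2.17. Of ACT preceded by AA, AG, GA or GG they held 6 in HSPA1A and 8 in HSPA1B, below the means of 11 and 11.2, so the pair lay above or below exons of like length depending on the form counted. At least 1 GGAC is held by 98.8% of exons of like length for HSPA1A and by 99% for HSPA1B. All 3 copies of GGACT in the HSPA1A coding sequence stand at the same position in HSPA1B. Both exons are richer in G and C, at 59.7% in HSPA1A and 58.7% in HSPA1B, against a median of 42.6% in exons of like length, and this was not taken into account.

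The other listed exons lay on both sides of exons of like length. HSP90AA1 exon 11 held 0 of GGAC, which 93.8% of exons of like length hold, and 3 copies of ACT preceded by AA, AG, GA or GG, against a mean of 4.52. Its G and C content was 39.9%, against a median of 48.4%. BAG3 exon 3 held 0 of GGAC, which 79.4% of exons of like length hold, BAG3 exon 4 held 5 (mean 4.89) and BAG3 exon 1 held 4 (mean 2.26). BAG3 exon 4 also held 8 copies of the ACT forms, against a mean of 5.84. Among the HSPH1 exons, exon 14 held 1 copy of GGAC and exons 2, 11, 12 and 13 held 0, where between 25.9% and 63.3% of exons of like length hold it. Of ACT preceded by AA, AG, GA or GG, HSPH1 exon 12 held 2 copies, against a mean of 0.587, and the other 4 HSPH1 exons 0. At least 1 GGAC was present in 4 of the 6 knockdown-only exons, 2 of them the near-identical HSPA1A and HSPA1B, where the share in exons of like length averaged 69.3%. It was present in 1 of the 5 shared exons, where that share averaged 72.8%. The count of knockdown-only exons was thus near the background, and that of shared exons was below it. The shared exons were only 5, from 3 genes, and the difference was not tested. For HSPA1A and HSPA1B a match was nearly certain beforehand, since 98.8% and 99% of their exons of like length hold GGAC. A missing match says only that these letters are not in that exon.

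The whole transcripts of genes without an interval were not uniformly poor in GGAC. HSF1 held 22 copies of GGAC, a density above that of 98.8% of 19684 protein-coding genes, and had no listed interval. HSPA1B stood at 97.3% and HSPA1A at 94.7% by the same measure, BAG3 at 58.8%, and HSPA8, with no listed interval, at 55.1%. HSPB1 stood at 75.8%, HSP90AA1 at 21.7%, HSPH1 at 16.7% and HSPA5 at 15.4%. By density of GGACT, HSPA1B stood at 97.3%, HSF1 at 74.6%, HSPA1A at 66.2%, BAG3 at 40.1% and HSPA5 at 23.5%. HSPH1 stood at 16.7% and HSP90AA1 at 13.8%, and HSPA8 and HSPB1 held 0 copies of GGACT. Genes with and without listed intervals were thus mixed along both orders.

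The promoters of HSPA1A and HSPA1B are shown because the genes were listed together and are known targets of HSF1. Each sequence starts 250 bases before the RefSeq start and runs for 170 bases, on the plus strand (GRCh38.p14, chr6:31815293-31815462 and chr6:31827488-31827657). Capitals mark GAANNTTC or TTCNNGAA, pairs of inverted units of a heat shock element. The search was made on the strand of the gene, and both forms read the same on the other strand.
HSPA1A: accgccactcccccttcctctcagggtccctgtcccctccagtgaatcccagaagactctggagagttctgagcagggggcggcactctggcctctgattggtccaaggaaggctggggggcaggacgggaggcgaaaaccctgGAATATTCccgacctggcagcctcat
HSPA1B: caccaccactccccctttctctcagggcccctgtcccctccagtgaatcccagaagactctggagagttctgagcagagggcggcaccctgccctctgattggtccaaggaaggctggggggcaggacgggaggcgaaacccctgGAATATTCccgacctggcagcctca

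The 250 bases before the start held 1 such match in HSPA1A and 1 in HSPA1B, beside 11.6% of 35116 promoters with at least 1. HSPA8 held 4 matches, some of them overlapping, and HSPB1 held 1, and neither had a listed interval. Of the 2 HSP90AA1 promoters in the table, 1 held 3 matches and the other 0. HSPH1, BAG3 and HSPA5 held 0 in this window. HSF1 had no entry. The matches are letters in a window and were not tested for binding.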

How the data were processed

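Poly(A) RNA of 16-HBE cells was profiled by MeRIP-seq. The submitters' processing notes name HISAT2 2.0.4 and the build hg19. Each condition has 1 deposited peak list, in BED layout with a strand. Its score column holds the authors' peak score (50.02 to 3233.06 in both lists), with no stated scale. The sources used here do not give the peak caller's settings, how listed peaks were chosen, whether the 3 replicates of the design text were pooled, or read depths.

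Intervals were taken where they overlapped a gene window on its strand, and counted as shared with 1 bp of overlap on the same strand. Positions count from 1. Scores were ranked within a list only. Exons and transcripts came from GENCODE release 29 (GRCh38), matched by gene name and exon length, and promoters from RefSeq; no position was carried between builds. For each gene 1 protein-coding transcript was used, chosen by most exons of the intervals' widths, then by annotation as principal and by length. Promoters were found for 8 of 9 genes. Python 3.11.15, numpy 2.4.6 and statsmodels 0.14.6 were used, and the overlap step was tested on simulated data. Every interval in the windows is named. The genes, lists and tests were chosen with earlier results of these data known. A wider list of chaperone genes was not analysed here, since it needs annotation of hg19.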

Additional observations from a re-analysis of the deposited data

How the results depend on the processing

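Of 24 counts under alternatives, 19 stayed within 1.5 times the reported count. These were all counts under windows extended by 2 kb, intervals of either strand and intervals whole inside the window. They also included all counts under 50% reciprocal overlap, identical borders and overlap on either strand, and the 5 CSE intervals in the upper 50% by score. The 50% and identical-border settings could not change a count, since all shared intervals had identical borders. Nor could extension by 2 kb, since the nearest same-strand interval outside any window lay 9281 nt away. The unchanged counts under these settings are thus no sign of robustness. In the upper 50% by score the knockdown list kept 6 of its 11 intervals, of which 3 were knockdown-only and 3 shared. HSPA1A and HSPA1B, chosen by score, were 2 of these 3 knockdown-only intervals. The CSE list had 2 CSE-only and 3 shared, because the HSPH1 exons 12 and 13 were left out of the upper part of the knockdown list. Percentiles were also ranked within the same width class (up to 300 nt, or over). There the median percentile of the heat shock intervals was 75.8 with knockdown and 95.6 in CSE. Over the whole lists it was 77.9 with knockdown and 96.8 in CSE. The knockdown medians include HSPA1A and HSPA1B, chosen by score, each at the 95.5th percentile of the whole list. The other knockdown intervals ran from percentile 7.55 to 95.5 of that list. Of 16 single percentiles, 7 were higher and 9 lower in the width class, with a largest shift of 8. The 7 were all HSPH1 intervals of up to 300 nt and the 9 were all over 300 nt. The direction thus followed width and says nothing about robustness. All 16 single percentiles and both medians left the Wilson 95% interval of the whole-list percentile, and so counted as moved. No paired analysis was possible because each condition had 1 list. With 1 list per condition no replicate could be left out, and the depth behind each interval is unknown.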
